A study of Mus musculus with 12 samples.

Results

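The genes described here are 38 complement and coagulation genes of the mouse liver: complement components and their regulators, clotting factors, and proteins of the kinin and fibrinolytic systems that hepatocytes secrete into plasma. They were taken as the rows of the deposited gene table whose symbol was one of 38 names, 17 of them complement genes and 21 of them coagulation, kinin or fibrinolysis genes. All 38 were found among 48795 rows, each as 1 row, and all 38 passed the filter on low counts that left 13812 genes for testing. RNA was sequenced from whole livers of 12 female mice aged 4 months and kept on normal chow, 3 in each of 4 groups. Nts+/+ mice and whole-body Nts-/- littermates, which lack the gene for the gut peptide neurotensin in every tissue, were fed at will or had food withheld for 22 h before the liver was taken. The study asked how the loss of neurotensin alters fed and fasted livers. The count of Nts itself went against the labels. It was 0 in each of the 6 libraries labelled Nts+/+ and 46, 40, 15, 12, 4 and 18 in the 6 libraries labelled Nts-/-. These are few counts for libraries of this size, and their cause was not tested. The genotypes below are those of the labels. Library totals ranged from 21999647 to 45273069 expected counts, and the mitochondrially encoded genes took between 2.24% and 5.81% of the counts of a library.

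Complement is a cascade of plasma proteins in which recognition molecules such as mannose-binding lectins switch on serine proteases, the proteases cleave C3, and the terminal components then assemble into a pore in the target membrane. Coagulation is a second protease cascade, in which thrombin turns soluble fibrinogen into a fibrin clot, plasmin dissolves the clot, and serpins and protein C hold the proteases in check. Hepatocytes make most of these proteins and export them to blood, so that their messenger RNAs are among the most abundant in the organ.

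Levels were compared between genes only after division by transcript length and scaling to 1e6 per library (written per 1e6), called the length-scaled level here. On that scale 7 of the 38 genes ranked among the top 100 of the liver and 29 among the top 1000. Fgg, the gamma chain of fibrinogen, had the highest mean level over the 12 mice, 4065 per 1e6 with a range of 2887 to 5293, and ranked 40 of all genes. C3, the central component of complement, followed at 3571, and Fga and Fgb, the alpha and beta chains of fibrinogen, at 3115 and 2224. Prothrombin (F2), plasminogen (Plg) and kininogen (Kng1) formed the next tier at 1897, 1827 and 1757. At the other end were Masp1, a protease of the lectin pathway, at 16.0, C6, a terminal component, at 13.4, and the row named Klkb1 at 8.31. The components of the membrane pore did not share one level: C8g stood at 505 per 1e6, C9 at 166, C8a at 119, C8b at 80.5 and C6 at 13.4.

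**Figure D1:**
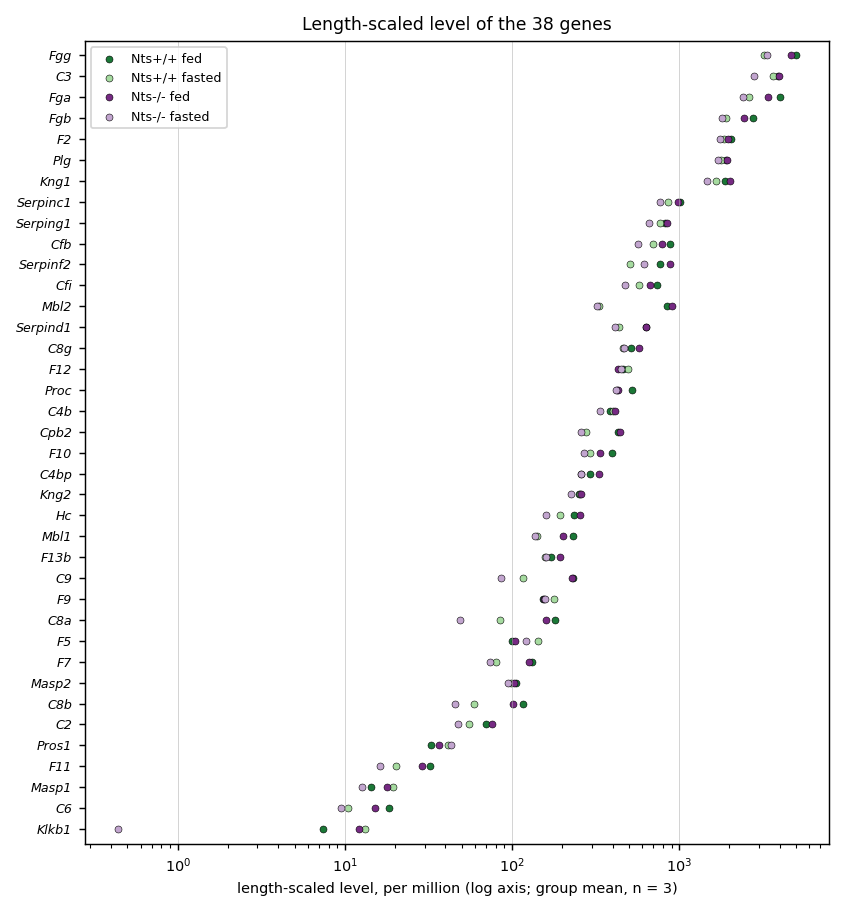
Length-scaled level, per 1e6 on a log axis, of each of the 38 genes, with 1 point for the mean of each group of 3 mice, ordered by the mean over all 12 mice. Levels run from 4065 per 1e6 for Fgg to 8.31 for the Klkb1 row, and the fed and fasted points lie apart for Mbl2, C9, C8a and C8b.

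Fasting lowered part of this set. In Nts+/+ livers 11 of the 38 genes fell and 1 rose, against 9.19% of all tested genes that fell and 8.91% that rose. In livers labelled Nts-/- 7 of the 38 fell and none rose, against 9.14% and 7.70% of all genes. The genes that fell in both numbered 5: Mbl2, C9, C8b, Cpb2 and F7, which are 41.7% of the 12 calls in Nts+/+ and 71.4% of the 7 calls in Nts-/- livers. Over all tested genes, 1481 were called in both genotypes in the same direction, 59.2% of the calls in Nts+/+ and 63.7% of those in Nts-/- livers. With the fasting change averaged over both genotypes, from the same 12 mice, 18 of the 38 fell and 2 rose, against 16.8% and 16.0% of all genes. The median log2 fold change of the 38 was -0.27 in Nts+/+ and -0.28 in Nts-/- livers, where that of all tested genes was within 0.01 of 0. A gene was called at a Benjamini-Hochberg adjusted p under 0.05 over all 13812 genes in edgeR's quasi-likelihood test, which is the source of every adjusted p below. In whole liver, fewer cells of a type and less RNA per cell cannot be told apart.

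**Figure D2:**
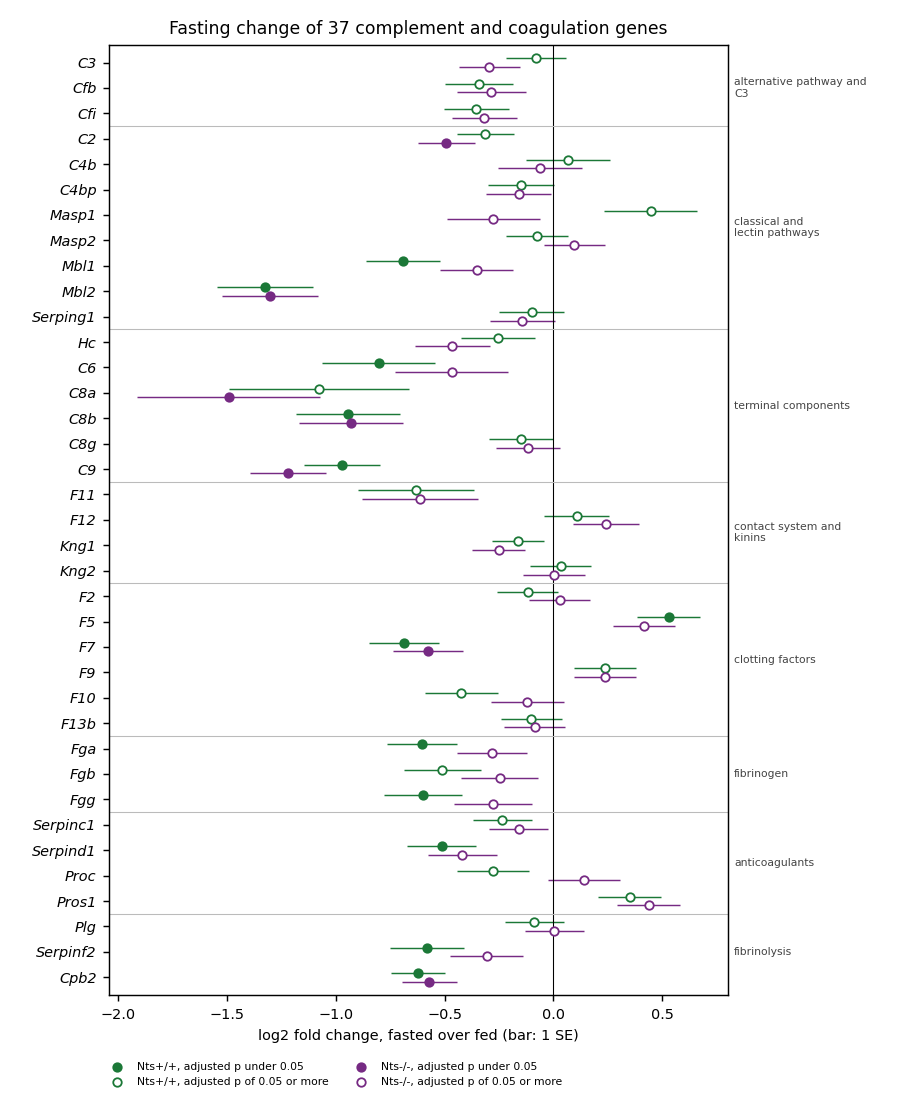
Log2 fold change of fasted over fed livers for 37 of the 38 genes, grouped by role, in Nts+/+ (green) and Nts-/- (purple) mice, with bars of 1 SE and filled points for an adjusted p under 0.05. Klkb1, whose estimate in Nts-/- livers was -4.56 with an SE of 1.82, lies outside the axis and is not drawn. Mbl2, C9, C8a and C8b lie farthest to the left in both genotypes, and F5, Pros1, F9 and F12 lie to the right of 0 in both.

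Among the recognition molecules and proteases of the classical and lectin pathways, Mbl2 showed the steepest fall. Mbl2 encodes a mannose-binding lectin, a soluble receptor for microbial sugars that starts the lectin pathway. It read 604, 695 and 633 CPM (counts scaled to 1e6 per library, with edgeR's TMM factors) in the fed Nts+/+ mice and 256, 223 and 291 CPM in the fasted ones. In the mice labelled Nts-/- it read 490, 560 and 896 CPM fed and 304, 198 and 288 CPM fasted. Every fasted mouse was below every fed mouse, and the fed Nts-/- group was the most spread. The fall was 2.51-fold in Nts+/+ (log2 fold change -1.33, SE 0.22, adjusted p = 0.00148) and 2.46-fold in Nts-/- livers (-1.30, SE 0.22, adjusted p = 0.00154). Mbl1, the second mannose-binding lectin of the mouse, read 171, 162 and 214 CPM in fed and 136, 87.1 and 116 CPM in fasted Nts+/+ livers, without overlap, a log2 fold change of -0.69 (SE 0.17, adjusted p = 0.0129). In Nts-/- livers its groups of 148, 146 and 150 CPM and 119, 97.9 and 130 CPM did not overlap either, but the change of -0.35 (SE 0.17) did not pass (adjusted p = 0.167).

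C2, the protease subunit of the classical and lectin C3 convertase, passed the threshold in Nts-/- livers, where it fell, from 91.3, 83.9 and 109 CPM to 72.9, 65.0 and 64.0 CPM (log2 fold change -0.49, SE 0.13, adjusted p = 0.0216). The change of C2 in Nts+/+ livers was -0.31 (adjusted p = 0.118), and the difference between the genotypes, -0.18 with an SE of 0.19, did not pass (adjusted p = 0.921). The other 5 genes of these pathways gave no call in any fasting comparison. C4b, the substrate that C1s and the MASP proteases cleave, had a change over both genotypes of 0.00 with a 95% interval of -0.29 to 0.29, and its reads can be split with its near-identical neighbour C4a, which held a mean of 81.7 counts per mouse against 30034. C4bp, which inhibits that convertase, gave -0.15, Serping1, the C1 inhibitor, -0.12, Masp2, the protease that cleaves C4 after lectin binding, 0.01, and Masp1, which activates Masp2, 0.09. Reads of Masp2 and Masp1 may be shared with genes on the opposite strand, Tardbp and Rtp4, whose counts were 35.2% and 29.0% of theirs, and the sources used here do not say whether counting used strand.

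The terminal components insert one after another into a target membrane: C5, encoded by Hc, is cleaved first, C6 and the 3 chains of C8 join it, and copies of C9 close the pore. Over both genotypes 5 of the 6 fell, against 16.8% of all tested genes, and the median log2 fold change of the 6 was -0.79. C9 read 261, 211 and 240 CPM in fed and 152, 101 and 110 CPM in fasted Nts+/+ livers. In Nts-/- livers it read 247, 177 and 229 CPM fed and 100, 97.4 and 82.0 CPM fasted. The fed and fasted mice did not overlap in either genotype, and C9 had the smallest p of the 38 genes in Nts-/- livers. Its fall was 1.96-fold in Nts+/+ (log2 fold change -0.97, SE 0.18, adjusted p = 0.0024) and 2.33-fold in Nts-/- livers (-1.22, SE 0.18, adjusted p = 0.000468).

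The 3 chains of C8 are products of 3 genes and make up 1 protein. C8b, the beta chain, read 171, 133 and 229 CPM in fed and 102, 69.4 and 105 CPM in fasted Nts+/+ livers, and 184, 112 and 133 CPM against 90.8, 70.1 and 64.2 CPM in Nts-/- livers. The groups were separate in both genotypes, with log2 fold changes of -0.95 (SE 0.24, adjusted p = 0.017) and -0.93 (SE 0.24, adjusted p = 0.0186). C8a, the alpha chain, which lies beside C8b on chromosome 4, had the largest SE of the set after Klkb1. It read 336, 257 and 395 CPM in fed and 165, 83.7 and 219 CPM in fasted Nts+/+ livers, a change of -1.08 with an SE of 0.42 that did not pass (adjusted p = 0.101), and 407, 171 and 224 CPM against 137, 70.1 and 78.3 CPM in Nts-/- livers, a change of -1.49 that did (SE 0.42, adjusted p = 0.0354). C8g, the gamma chain, is a lipocalin unrelated to the other chains and is encoded on chromosome 2. Its reads were 275, 281 and 335 CPM fed and 293, 270 and 241 CPM fasted in Nts+/+ livers, with overlap, and its changes were -0.15 (95% interval -0.46 to 0.16) and -0.12 (-0.43 to 0.20) in the 2 genotypes. Fbxw5, on the strand opposite C8g, had counts equal to 12.2% of those of C8g. C6 fell in Nts+/+ livers by 0.80 on the log2 scale (SE 0.26, adjusted p = 0.0495), where its fed mice at 27.5, 20.1 and 35.6 CPM overlapped the fasted at 14.4, 11.9 and 21.1 CPM. Hc fell over both genotypes (-0.36, SE 0.12, adjusted p = 0.0349) and in neither alone.

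C3 and the alternative pathway moved less. C3 read 9936, 11117 and 9112 CPM in fed and 9614, 9638 and 9284 CPM in fasted Nts+/+ livers, and 9687, 9123 and 9529 CPM against 7105, 7488 and 8523 CPM in Nts-/- livers. Fed and fasted mice overlapped in the first genotype and not in the second, and the change of C3 over both genotypes, -0.19, did not pass (adjusted p = 0.162). Cfb, the protease of the alternative C3 convertase, and Cfi, the protease that inactivates C3b, fell over both genotypes by 0.31 (SE 0.11, adjusted p = 0.0442) and 0.34 (SE 0.11, adjusted p = 0.0252) on the log2 scale, and neither passed within a genotype.

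**Figure D3:**
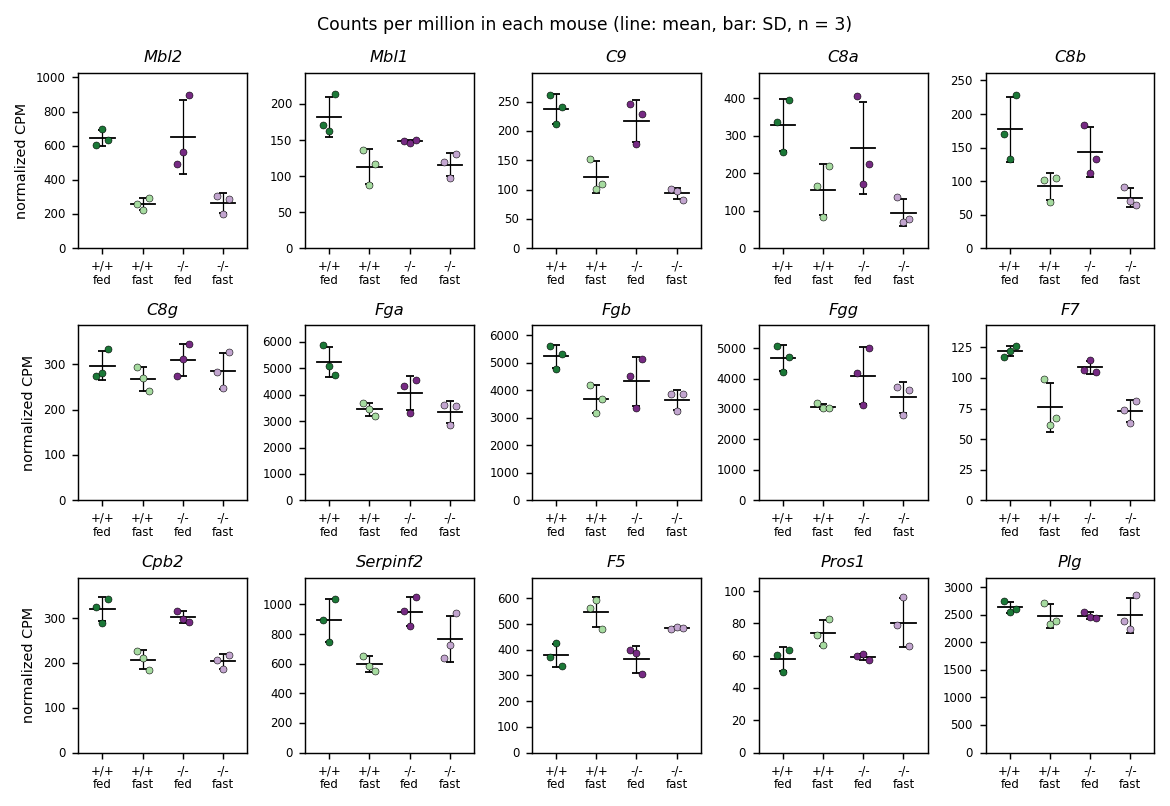
TMM-scaled CPM of 15 of the 38 genes in each of the 12 mice, with 3 points, the mean and the SD of each group, and with every axis starting at 0. The fasted mice lie below all fed mice for Mbl2, C9, F7 and Cpb2 and above all fed mice for F5 and Pros1, whereas the groups overlap for C8g and Plg.

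Fibrinogen, the protein that thrombin turns into fibrin, is built from 3 chains whose genes lie next to each other on chromosome 3. Fga read 5870, 5104 and 4732 CPM in fed and 3676, 3458 and 3202 CPM in fasted Nts+/+ livers, Fgb 5604, 4784 and 5343 against 4183, 3172 and 3692 CPM, and Fgg 5084, 4215 and 4712 against 3183, 3032 and 3023 CPM. None of the 3 chains overlapped between fed and fasted Nts+/+ mice, but the share of all tested genes without overlap was not counted. Fga fell by 0.60 on the log2 scale (SE 0.16, adjusted p = 0.0213) and Fgg by 0.60 (SE 0.18, adjusted p = 0.033), and Fgb had a change of -0.51 that did not pass (SE 0.18, adjusted p = 0.0593). In Nts-/- livers the 3 chains overlapped between fed and fasted mice, with changes of -0.28, -0.25 and -0.28 for Fga, Fgb and Fgg, and none passed. The mouse labelled Nts-/- number 303 was the lowest of its fed group for each chain, at 3316, 3353 and 3130 CPM. The difference in fasting change between genotypes was 0.32 for Fga (95% interval -0.17 to 0.81), 0.26 for Fgb (-0.27 to 0.79) and 0.32 for Fgg (-0.22 to 0.87), with adjusted p from 0.901 to 0.906. Over both genotypes all 3 chains fell (-0.44, -0.38 and -0.44, adjusted p = 0.00933, 0.0309 and 0.0163).

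The sequences before the starts of the 3 fibrinogen genes, which moved together, and of Mbl2 and C9, which fell in both genotypes, are shown for context. They are RefSeq promoters of GRCm38.p6, the build of the deposited coordinates, written 5' to 3' on the strand of the gene and cut where the deposited gene begins. They lie at chr3:83025903-83026075 on the plus strand (Fga), chr3:83049864-83050113 on the minus strand (Fgb), chr3:83007474-83007723 on the plus strand (Fgg), chr19:30232678-30232927 on the plus strand (Mbl2) and chr15:6445096-6445326 on the plus strand (C9). Capitals mark matches, on either strand, to TTGCNNAA (C/EBP), TTCCNGGAA (STAT), CAAAGTCCA (HNF4) and AGGTCA (nuclear receptor half-site).
Fga: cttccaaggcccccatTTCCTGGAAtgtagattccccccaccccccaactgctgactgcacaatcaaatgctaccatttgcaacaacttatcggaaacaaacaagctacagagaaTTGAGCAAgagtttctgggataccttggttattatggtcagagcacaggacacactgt
Fgb: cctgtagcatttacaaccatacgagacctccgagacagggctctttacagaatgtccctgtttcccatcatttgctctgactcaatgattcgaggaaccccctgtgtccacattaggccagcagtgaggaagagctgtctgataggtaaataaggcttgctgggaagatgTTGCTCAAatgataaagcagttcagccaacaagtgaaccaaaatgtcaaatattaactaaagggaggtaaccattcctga
Fgg: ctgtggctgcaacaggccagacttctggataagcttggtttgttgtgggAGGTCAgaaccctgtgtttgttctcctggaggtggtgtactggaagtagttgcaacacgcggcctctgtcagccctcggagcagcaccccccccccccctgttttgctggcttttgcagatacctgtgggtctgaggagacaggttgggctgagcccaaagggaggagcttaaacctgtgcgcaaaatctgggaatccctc
Mbl2: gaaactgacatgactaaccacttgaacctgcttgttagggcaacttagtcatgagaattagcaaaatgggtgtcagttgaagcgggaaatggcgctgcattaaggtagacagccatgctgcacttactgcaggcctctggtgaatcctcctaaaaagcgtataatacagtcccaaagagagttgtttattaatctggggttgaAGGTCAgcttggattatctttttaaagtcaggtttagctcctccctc
C9: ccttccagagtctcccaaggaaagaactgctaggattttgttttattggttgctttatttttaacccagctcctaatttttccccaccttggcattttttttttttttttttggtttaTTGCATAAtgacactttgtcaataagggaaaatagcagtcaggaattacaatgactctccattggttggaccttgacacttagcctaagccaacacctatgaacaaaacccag
In Fga the capitals are a STAT match that begins 234 bases before the RefSeq start and a C/EBP match at 135. In Fgb the capitals are a C/EBP match at 80. The single matches of Fgg at 201 and of Mbl2 at 47 are nuclear receptor half-sites, and that of C9 at 132 is to C/EBP. Promoters were found for 29 of the 38 genes, as 30 sequences because C8g has 2, and the 250 bases before the start were searched. C/EBP letters were in 8 of the 30 (9.56% of 32851 promoters of all genes), among them Fga, Fgb, C9 and C3. The nuclear receptor half-site was in 11 of the 30 (14.0% of all promoters), STAT letters in 2, Fga and Pros1 (0.913%), and HNF4 letters in 0 (0.384%). A match is a run of letters, not a bound site, and these motifs are short.

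The clotting factors upstream of thrombin went both ways. F7, the protease that tissue factor activates to begin clotting, read 117, 122 and 126 CPM in fed and 98.8, 61.5 and 67.5 CPM in fasted Nts+/+ livers, and 106, 115 and 105 CPM against 73.6, 63.4 and 81.6 CPM in Nts-/- livers. No fasted mouse reached a fed one, and the log2 fold changes were -0.69 (SE 0.16, adjusted p = 0.0109) and -0.58 (SE 0.16, adjusted p = 0.0259). F5, the cofactor that F10 needs to make thrombin, rose in Nts+/+ livers, from 370, 426 and 338 CPM to 562, 594 and 481 CPM (0.53, SE 0.14, adjusted p = 0.0218). In Nts-/- livers F5 read 399, 387 and 304 CPM fed and 483, 488 and 485 CPM fasted, without overlap, and the change of 0.42 (SE 0.14) missed the threshold (adjusted p = 0.0623). F5 was the 1 gene of the 38 that rose within a genotype. F2, F9, F10 and F13b, which encode prothrombin, factors IX and X and a chain of the clot-stabilising factor XIII, gave no call, with changes over both genotypes of -0.05, 0.24, -0.27 and -0.09.

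In the contact system, which starts clotting on charged surfaces and frees kinins, only F11 gave a call, a fall of 0.62 on the log2 scale over both genotypes (SE 0.19, adjusted p = 0.0245), with 53.6, 29.0 and 52.7 CPM against 41.0, 22.6 and 23.8 CPM in Nts+/+ and 42.4, 38.6 and 31.1 CPM against 28.8, 21.3 and 23.2 CPM in Nts-/- livers. F12, the protease at the head of that pathway, had a change of 0.17, and the kininogens Kng1 and Kng2, the precursors of bradykinin, had changes of -0.21 and 0.02, with reads that can be split between these near-identical genes. Klkb1, plasma prekallikrein, is uncertain. The row with that symbol (chromosome 8, 45269671 to 45308466) held 250, 593 and 0 counts in fed and 458, 403 and 750 in fasted Nts+/+ livers, and 1133, 398 and 0 in fed and 12, 20 and 22 in fasted Nts-/- livers. An overlapping row without a symbol, described in the table as the same gene (45266689 to 45294859), held 95.5% of the counts of both. The sum of both rows, an alternative chosen after seeing the data, read 294, 257 and 312 CPM fed and 227, 198 and 219 CPM fasted in Nts+/+ livers, and 298, 288 and 315 CPM fed and 236, 199 and 281 CPM fasted in Nts-/- livers. With the sum, fasted mice lay below fed mice in both genotypes, and plasma kallikrein fell over both by 0.38 on the log2 scale (SE 0.10, adjusted p = 0.01). Another gene, Cyp4v3, overlaps the Klkb1 row on the same strand and held a mean of 8497 counts per mouse. Sharing of reads with Cyp4v3 was not tested.

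Among the anticoagulants, Serpind1, heparin cofactor II, fell in Nts+/+ livers, from 605, 705 and 659 CPM to 566, 408 and 406 CPM (-0.51, SE 0.16, adjusted p = 0.0391), and its change in Nts-/- livers was -0.42 (adjusted p = 0.0863). Pros1, protein S, the cofactor of activated protein C, rose over both genotypes (0.39, SE 0.10, adjusted p = 0.0101). It read 60.6, 49.8 and 63.7 CPM fed and 72.7, 66.4 and 82.9 CPM fasted in Nts+/+ livers, and 59.8, 61.0 and 57.2 CPM fed and 79.0, 96.2 and 66.0 CPM fasted in Nts-/- livers. All 6 fasted mice were above all 6 fed mice, although neither genotype passed alone (adjusted p = 0.115 and 0.0557). Serpinc1, antithrombin, and Proc, protein C, gave no call, with changes over both genotypes of -0.20 and -0.07.

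Of the 3 fibrinolysis genes the 2 inhibitors fell and the enzyme did not. Cpb2, a carboxypeptidase that protects fibrin from plasmin, read 326, 290 and 343 CPM in fed and 227, 211 and 185 CPM in fasted Nts+/+ livers, and 317, 298 and 292 CPM against 206, 186 and 219 CPM in Nts-/- livers. The 2 states were well apart, with little spread inside a group, and the log2 fold changes were -0.62 (SE 0.12, adjusted p = 0.00448) and -0.57 (SE 0.12, adjusted p = 0.00748). Serpinf2, alpha-2-antiplasmin, fell in Nts+/+ livers, from 895, 750 and 1040 CPM to 655, 586 and 553 CPM (-0.58, SE 0.17, adjusted p = 0.0311), and had a change of -0.31 in Nts-/- livers that did not pass (adjusted p = 0.237). Plg, plasminogen itself, had a change over both genotypes of -0.04 with a 95% interval of -0.25 to 0.16.

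Some of these calls were lost when a single mouse was left out, which also made its group smaller. In Nts+/+ livers 12 genes were called with all mice, 6 without mouse 254, 6 without mouse 323 and 3 without mouse 282. In Nts-/- livers 7 were called with all mice and 3 without mouse 277 or mouse 290. Calls over all tested genes in Nts+/+ livers numbered 2501 with all mice and 1326, 2418 and 1224 without mouse 254, 323 and 282. Those in Nts-/- livers numbered 2326 with all mice and 1358 and 1365 without mouse 277 and mouse 290. Mbl2, C9 and Cpb2 passed in both genotypes whichever mouse was left out. In Nts+/+ livers F7 and Mbl1 were lost without mouse 282 (adjusted p = 0.0618 and 0.0676), C8b without mouse 323 or 282 (0.0588 to 0.0718), and F5 without mouse 254, 323 or 282 (0.0646 to 0.0969). Fga was lost on leaving out any of 4 of the 6 mice (254, 257, 282 or 322), C6 any of 4 (254, 323, 265 or 282), Serpinf2 any of 4 (254, 323, 282 or 322), Serpind1 any of 5 (each but 265) and Fgg any of the 6, with adjusted p from 0.0509 to 0.169. Calls of C8b and C8a in Nts-/- livers were lost without mouse 277, 290 or 295 (adjusted p up to 0.0838 and 0.13), C2 without mouse 277, 319, 290 or 295 (up to 0.0786), and F7 without mouse 277, 303, 284 or 290 (up to 0.11). Over both genotypes the calls of Cfb, F11, Hc, Fgb and Cfi were lost on leaving out any of 9, 8, 7, 7 and 5 of the 12 mice and that of Fgg on leaving out mouse 254, with adjusted p from 0.05 to 0.127, and the other 14 calls passed whichever mouse was left out.

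No gene of the 38 was called between the genotype labels. In edgeR's test 0 of the 38 were called in fed livers, 0 in fasted livers and 0 for the difference in fasting change, against 0% of all 13812 genes in each comparison. At an unadjusted p under 0.05 the numbers were 2, 4 and 2 of the 38, against 6.34%, 4.96% and 4.80% of all genes. DESeq2 called none of the 38 in any of the 3 comparisons, where it called 8, 4 and 3 of all 13812 genes. In fed livers the smallest p belonged to Fga, with a difference of -0.37 (Nts-/- over Nts+/+, log2, 95% interval -0.71 to -0.02, adjusted p = 0.774), from the values given above. Proc read 424, 446 and 371 CPM in Nts+/+ and 293, 288 and 380 CPM in Nts-/- fed livers, with overlap, a difference of -0.37 (-0.72 to -0.01, adjusted p = 0.777), and F10 read 513, 565 and 538 against 388, 399 and 490 CPM, without overlap (-0.34, -0.70 to 0.02, adjusted p = 0.777).

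In fasted livers Masp1 read 64.1, 49.4 and 44.0 CPM in Nts+/+ and 32.7, 37.8 and 37.4 CPM in Nts-/- mice. The groups did not overlap, and the difference was -0.54 (SE 0.21, adjusted p = 0.917). Masp1 also had the smallest p for the difference in fasting change, -0.72 (-1.37 to -0.07, adjusted p = 0.897), with fed levels of 37.5, 44.3 and 33.6 against 53.0, 49.6 and 28.0 CPM. C3 was lower in each fasted mouse labelled Nts-/- than in any fasted Nts+/+ mouse (-0.30, -0.60 to -0.01, adjusted p = 0.917). The Klkb1 row gave -4.86 in fasted livers (SE 1.83, adjusted p = 0.917), was called when the 6 fasted mice were fitted alone (adjusted p = 0.000425), and gave 0.15 once summed with its overlapping row. Its difference in fasting change, -5.38 (SE 2.31, adjusted p = 0.897), became 0.09 with the sum. Proc had a difference in fasting change of 0.42 (-0.08 to 0.92, adjusted p = 0.897). For Mbl2 the difference in fasting change was 0.03 with an interval of -0.64 to 0.69, and for C9 it was -0.25 with an interval of -0.77 to 0.28, so differences within these intervals could not be told from 0 with 3 mice a group.

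**Figure D4:**
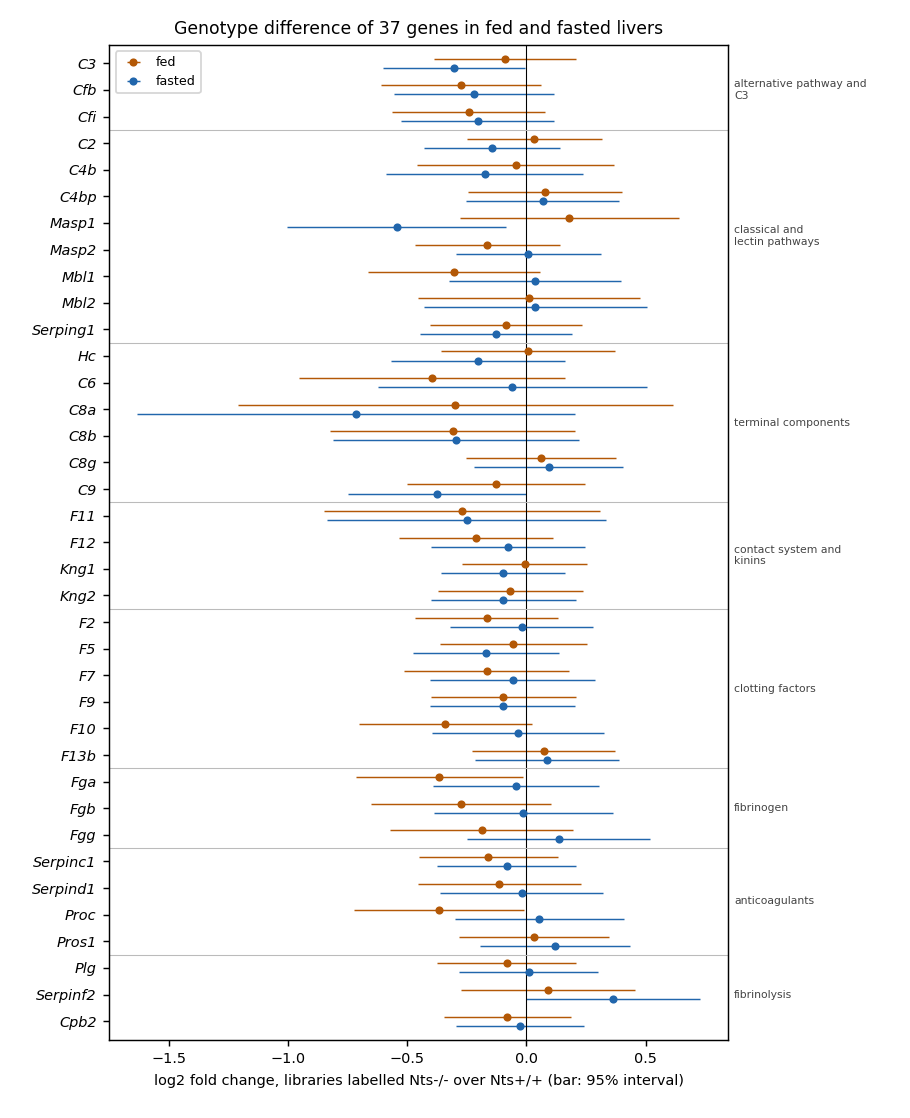
Log2 fold change of the libraries labelled Nts-/- over Nts+/+ in fed (brown) and fasted (blue) livers for 37 of the 38 genes, with 95% intervals that are not adjusted for the number of genes. Klkb1 is not drawn, most intervals include 0, and C8a has the widest, from -1.63 to 0.21 in fasted livers.

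The other genes of the 2 cascades were 49 genes not among the 38, of which 42 were tested. In Nts+/+ livers 4 rose and 10 fell, against 8.91% and 9.19% of all tested genes, and in Nts-/- livers 4 rose and 6 fell, against 7.70% and 9.14%. Ggcx, the carboxylase that vitamin K-dependent factors such as F7 need before they can bind membranes, read 62.9, 53.2 and 59.4 CPM fed and 29.9, 27.6 and 34.8 CPM fasted in Nts+/+ livers, and 76.3, 69.4 and 58.1 CPM against 28.7, 27.1 and 40.1 CPM in Nts-/- livers. The fed and fasted mice were far apart, and Ggcx fell by 0.92 (SE 0.16, adjusted p = 0.00196) and 1.09 (SE 0.16, adjusted p = 0.000604) on the log2 scale. Vkorc1l1, a vitamin K epoxide reductase, rose in both genotypes (0.63 and 0.59, adjusted p = 0.00239 and 0.00327), and Tfpi, the inhibitor of the F7 and tissue factor complex, fell in both (-0.92 and -0.77, adjusted p = 0.00421 and 0.011). C1ra and C1s1, the proteases of the C1 complex, fell in both as well (-0.58 and -0.63 in Nts+/+, -0.52 and -0.55 in Nts-/-). C1qbp, a mitochondrial protein named for binding C1q, and Hrg, a plasma glycoprotein that binds plasminogen and heparin, rose in both (0.48 and 0.40 in Nts+/+, 0.45 and 0.47 in Nts-/-). In Nts+/+ livers Serpina10, the inhibitor of F10 that acts with protein Z, fell by 0.68, and in Nts-/- livers Cd46, a membrane regulator of complement, rose by 1.63 with under 1.3 CPM in every mouse.

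C1qa, C1qb and C1qc, the chains of C1q, and Fcna, a ficolin, are made by macrophages rather than hepatocytes. In Nts+/+ livers C1qc went from 77.3, 85.8 and 59.3 CPM to 36.7, 35.7 and 56.4 CPM (-0.79, SE 0.19, adjusted p = 0.0115). Fcna fell there by 0.55 (SE 0.13, adjusted p = 0.011). In Nts-/- livers their changes were -0.01 and 0.03, and C1qc read 50.9, 43.2 and 49.4 CPM fed and 44.3, 55.8 and 43.1 CPM fasted. For the difference in fasting change, 0 of the 42 tested other pathway genes were called, against 0% of all genes. At an unadjusted p under 0.05 in edgeR there were 6 of the 42, against 4.80% of all genes. All 8 Kupffer cell and macrophage markers were tested, and 1 of them, Clec4f, fell in Nts+/+ livers (-0.86, adjusted p = 0.00569) and none in Nts-/- livers. Of all tested genes 9.19% and 9.14% fell in these livers. The summed level of the 8 markers ran from 500.3 to 566 CPM in fed and 255 to 436 CPM in fasted Nts+/+ livers, and from 309 to 439 and 314 to 490 CPM in Nts-/- livers. Its part in the C1q result was not tested. The summed level of the 7 sinusoidal endothelial markers ran from 186 to 267 CPM in fed and 164 to 177 CPM in fasted Nts+/+ livers, and from 208 to 234 and 155 to 185 CPM in Nts-/- livers, and that of the 6 cholangiocyte markers from 34.0 to 49.9 and 13.8 to 26.2 CPM, and from 33.5 to 35.7 and 15.1 to 29.7 CPM. The 7 stellate cell markers summed to 251 to 284 and 207 to 239 CPM in Nts+/+ livers, and to 228 to 295 and 212 to 230 CPM in Nts-/- livers. Over both genotypes 5 of these 7 fell, and of the 7 endothelial markers 4 fell and 1 rose. Of the 8 Kupffer cell and macrophage markers 2 fell, as did 1 of the 4 tested cholangiocyte markers. Of all tested genes 16.8% fell and 16.0% rose over both genotypes. The part of these cell types in the fasting results of the 38 genes was not tested. The 10 hepatocyte markers were all tested. Their summed level ran from 145958 to 169638 CPM in fed and 142188 to 168857 CPM in fasted Nts+/+ livers, and from 137543 to 159612 and 143166 to 150827 CPM in Nts-/- livers. Single markers moved in opposite directions: Apoa1 and Apob rose and Ttr and Trf fell in both genotypes, and albumin (Alb) had changes of 0.04 and 0.07.

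The 38 genes together took 4.89%, 4.67% and 4.63% of the counts in fed and 3.71%, 3.54% and 3.84% in fasted Nts+/+ livers. In Nts-/- livers they took 4.73%, 4.05% and 4.63% fed and 3.41%, 3.17% and 3.62% fasted. All 6 fasted libraries were below all 6 fed ones as a share of the raw total, but with the TMM-scaled library size as the denominator the fasted mice 265 (4.05%) and 295 (3.87%) lay above the fed mouse 303 (3.79%). Group means of the raw share were 4.73% ± 0.139 (SD, n = 3), 3.70% ± 0.147, 4.47% ± 0.363 and 3.40% ± 0.226 in that order. The 3 fibrinogen genes made up 1.40% to 1.68% of the counts in fed and 0.939% to 1.02% in fasted Nts+/+ livers, and 1.05% to 1.51% and 0.871% to 1.06% in Nts-/- livers. The 6 terminal components, among them C9, C8a and C8b, took between 0.0878% and 0.214% in any library, so they weighed little in the share of the 38 genes.

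**Figure D5:**
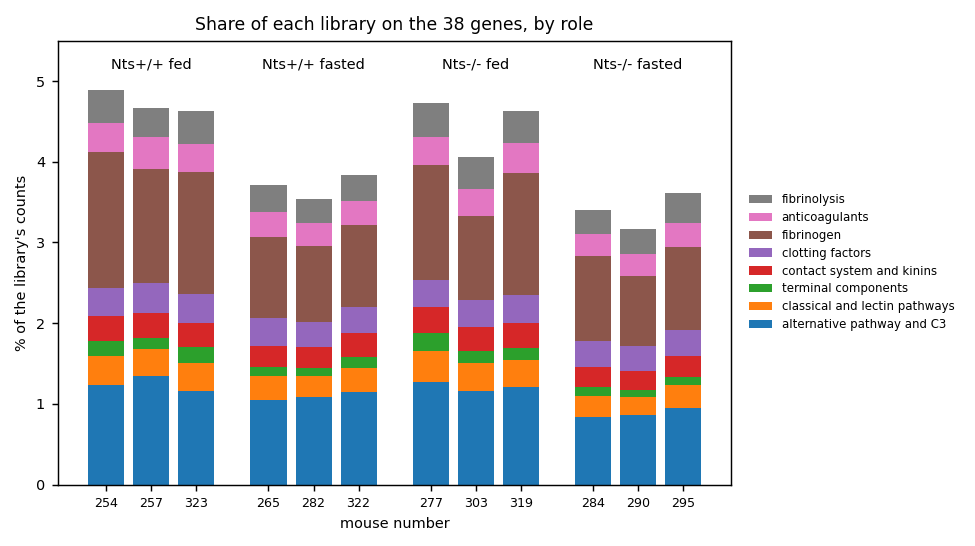
Percentage of each library's counts on the 38 genes, 1 bar for each of the 12 mice, stacked by role from C3 and the alternative pathway at the bottom to fibrinolysis at the top. The 6 fed bars reach 4.05% to 4.89% and the 6 fasted bars 3.17% to 3.84%, and C3 with the alternative pathway and fibrinogen are the largest blocks in each.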

How the data were processed

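Liver RNA-seq libraries of 12 mice were analysed, 3 per group. Each p-value sets a difference between groups against the spread between mice. That spread was estimated over all 4 groups together and with information from the other genes. The authors deposited expected counts per gene in 1 table, made, per the submitters' processing notes, with Trimmomatic and RSEM on GRCm38. Versions and whether counting used strand are not given in the sources used here. Of the values, 7.94% were not whole, from reads shared between genes, and all were rounded. Genes kept by filterByExpr (13812 of 48795) were fitted over all 12 mice with edgeR 4.0.16 (TMM, robust quasi-likelihood, R 4.3.3), and p-values were adjusted by Benjamini-Hochberg over all of them. DESeq2 1.42.0 was an alternative, with other normalizations, filters, a length trend, a threshold of 0.10 and each mouse left out. A count of 3 corresponds to 0.0663 to 0.136 CPM across libraries. The fit was tested on counts simulated for the Nts+/+ fasting comparison. It recovered 64 of 100 genes with a 2-fold change and 87 of 100 with a 4-fold change, and called 9 of 13413 unchanged genes. Length-scaled levels used GENCODE vM39 transcript lengths matched by gene ID, and promoters came from RefSeq. The 38 genes, gene lists and tests were chosen with earlier results of these data known. In full are given, per fasting comparison, up to 6 genes called in each direction by smallest p, and, per genotype comparison, the 3 with the smallest p; others get their change or range, and C3, C8a, C8g, the fibrinogen chains, F11, Klkb1, Pros1 and other genes with values per mouse beyond that were chosen after their values were seen. Of other pathway genes, up to 8 called ones per fasting comparison are named, and some items of the lists are not reported here.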

Additional observations from a re-analysis of the deposited data

Results flagged for a closer look

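A row without a symbol that overlaps Klkb1, and that the report's comparisons of the 38 genes do not use, held a mean of 7122 counts per mouse, where the Klkb1 row held a mean of 337. On its own it fell with fasting over both genotypes by 0.38 on the log2 scale (SE 0.11, adjusted p = 0.0139 in edgeR), in Nts+/+ livers by 0.50 (adjusted p = 0.0347), and had a change of -0.26 in Nts-/- livers (adjusted p = 0.254). Groups of 3 mice are too small for the test of single outlying samples, and none was made.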

How the results depend on the processing

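Of the 38 genes, 12 were called for fasting in Nts+/+ livers, 7 in Nts-/- livers and 20 over both, and 0 in each genotype comparison. Other normalizations, count filters and a length trend moved no count by over 1.5 times. In Nts-/- livers the DESeq2 test and an adjusted p under 0.10 each gave 11 calls, 9 lower and 2 higher. Over all 13812 tested genes, calls in these livers rose as well, from 2326 to 2788 with DESeq2 and 3424 at 0.10. With each mouse left out in turn, the counts ran from 3 to 12 in Nts+/+ and from 3 to 9 in Nts-/- livers. Over both genotypes they ran from 14 to 19. For all tested genes the 3 ranges were 1224 to 2418, 1358 to 2631 and 3729 to 4594. The cause was not tested. Fitting the 6 fasted mice alone called 1 of all 13184 genes tested there between genotypes, the Klkb1 row. Summing both kallikrein rows, chosen after seeing the data, reversed the Klkb1 estimate in 3 comparisons, to -0.42 for fasting in Nts+/+ livers, to 0.15 between fasted genotypes and to 0.092 for the difference in fasting change, because the overlapping row holds most of the counts. Of 33 named changes, 21 were called, and 18 re-estimates of these lost the call, each on leaving out 1 mouse. Calls outside the 33 are not counted in the 18, such as Fgg in Nts+/+ livers, lost on leaving out any of 6 mice. The other pathway genes called ranged from 3 to 16 in Nts+/+ and from 3 to 14 in Nts-/- livers. Calls over all tested genes varied too. In Nts+/+ livers they ran from 1224 without mouse 282 to 2881 with DESeq2. In Nts-/- livers they ran from 1358 without mouse 277 to 2788 with DESeq2. The share of counts on the 38 genes moved by less than 1 SD under each alternative. No paired analysis was possible because the mouse numbers are not shared between groups. With 3 mice a group, many smaller changes have intervals that include 0.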

Other observations

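The transcription factors and receptors that are known to act on liver secretory genes were fixed as a list of 22, all of them tested. In Nts+/+ livers 5 rose and none fell with fasting, against 8.91% and 9.19% of all tested genes, and in Nts-/- livers 3 rose and 2 fell, against 7.70% and 9.14%. Cebpd, a C/EBP factor of the acute phase, read 4.65, 3.64 and 2.26 CPM fed and 5.69, 11.2 and 10.0 CPM fasted in Nts+/+ livers, and 3.33, 2.82 and 4.79 CPM against 8.93, 9.70 and 9.52 CPM in Nts-/- livers. The groups did not overlap, and it rose by 1.35 and 1.37 on the log2 scale (SE 0.29 in both, adjusted p = 0.00675 and 0.00615 in edgeR). Il6ra, the receptor for interleukin-6, rose in both genotypes too (0.87 and 0.74, adjusted p = 0.0097 and 0.0216). Cebpb, Ppara and Nr1h4, the bile acid receptor, rose in Nts+/+ livers (1.22, 0.89 and 0.51, adjusted p = 0.0364, 0.0119 and 0.0419), and Creb3l3 rose and Nr3c1, the glucocorticoid receptor, fell in Nts-/- livers (0.96 and -0.61, adjusted p = 0.00664 and 0.0144). Il6st, the signalling chain that Il6ra shares with other receptors, fell in Nts-/- livers (-0.50, adjusted p = 0.0497). Hnf4a, Cebpa and Stat3 were not called, with changes over both genotypes of 0.24, 0.02 and 0.02. None of the 22 was called in edgeR between genotypes, fed or fasted, or for the difference in fasting change between them. In each of these 3 comparisons 0 had an unadjusted p under 0.05.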
